A study of Danio rerio with 12 samples.

Results

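The uncoupling proteins of the mitochondrial inner membrane were read out as the transcripts of 3 zebrafish genes, ucp1 (ENSDARG00000023151), ucp2 (ENSDARG00000043154) and ucp3 (ENSDARG00000091209). They are 3 of the 44667 genes and assembled loci in the expression table. They were chosen by symbol, with earlier results of these libraries known, so their transcript levels were counted as used in the choice. Their levels and changes are therefore given as a description with no test, and tests were kept for other genes. All 3 were among the 30674 genes that had at least 1 TPM, the unit of transcript abundance explained below, in at least 3 of the 12 libraries. They passed by a wide margin, since the lowest of their 36 values was 49.8 TPM.

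The libraries came from poly(A) RNA of wild-type whole larvae at 4 days post fertilisation, in 4 groups of 3. The groups were untreated larvae (control), larvae given 20 mg/L PFOS (PFOS20), larvae given 20 mg/L OBS (OBS20) and larvae given 30 mg/L OBS (OBS30). PFOS is perfluorooctane sulfonate, a surfactant whose fluorinated alkyl chain ends in sulfonate. OBS is sodium p-perfluorous nonenoxybenzene sulfonate, used as its replacement, whose fluorinated alkenyl chain is linked by an ether oxygen to a benzene ring that bears the sulfonate. The series title names oxidative stress, tissue alterations and immune aberrations as the questions asked of OBS. Nothing in the labels tells if the replicates came from different clutches or larval pools, so p-values measure only the spread between these libraries, which may be technical. In whole larvae, fewer cells of a type and less RNA per cell cannot be told apart.

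Uncoupling proteins belong to the family of mitochondrial carriers that move small molecules across the inner membrane. In mammals, UCP1 of brown fat lets protons re-enter the matrix without making ATP, so that fuel oxidation gives heat, and fatty acids activate it. UCP2 is widely expressed in mammals and UCP3 is found mostly in skeletal muscle, and both have been linked to fatty acid use and to limits on mitochondrial superoxide rather than to heat. Fish have no brown fat, and in the common carp the ucp1 transcript was described mainly in the liver. Mammalian UCP2 and UCP3 transcripts are induced by fatty acids through the nuclear receptors of the PPAR family.

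TPM is a share of transcripts corrected for transcript length, so levels can be set side by side between genes, and it sums to one fixed total in every library. The read depth behind it is unknown. The library of OBS20 replicate 3 stood apart, with a median of 1.27 TPM and 23942 genes and loci at or above 1 TPM, against 1.57 to 2.33 TPM and 25775 to 28432 in the other libraries. Within OBS20 it had the lowest ucp1 value and the highest ucp2 and ucp3 values. Without it, the OBS20 changes against control described below were -1.06 for ucp1, 0.24 for ucp2 and 0.20 for ucp3 on the log2 scale.

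In control larvae ucp2 was the most abundant of the 3 transcripts. Its levels were 367, 361 and 341 TPM in the 3 control libraries, a mean of 356 ± 13.3 TPM (SD, n = 3). That placed it 360th of the 44667 rows. The ucp1 transcript followed with 151, 102 and 122 TPM and a mean of 125 ± 24.7 TPM (SD, n = 3). The ucp3 transcript had 69.7, 68.4 and 60.1 TPM and a mean of 66.1 ± 5.18 TPM (SD, n = 3). The 3 sets of control values did not overlap, so the order of abundance was the same in each control library. Of the spread between libraries, ucp1 had the most, with a coefficient of variation of 19.7% against 3.73% for ucp2 and 7.84% for ucp3. Among 59 named mitochondrial carriers, the uncoupling proteins included, ucp2 ranked 4th, ucp1 5th and ucp3 8th by mean TPM in control larvae.

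The ucp1 gene encodes the fish counterpart of the thermogenic uncoupling protein, and it alone had PFOS and OBS values on opposite sides of control. In PFOS20 its levels were 188, 215 and 168 TPM, a mean of 191 ± 23.4 TPM (SD, n = 3). In OBS20 they were 56.4, 61.2 and 49.8 TPM, a mean of 55.8 ± 5.71 TPM (SD, n = 3). Every PFOS20 library lay above every control library, and every OBS20 library lay below. In OBS30 the levels were 90.5, 76.5 and 84.1 TPM, a mean of 83.7 ± 7.05 TPM (SD, n = 3). These lay between the OBS20 and the control libraries and overlapped neither. The order of ucp1 from high to low was therefore PFOS20, control, OBS30, OBS20, and no neighbours in that order shared values.

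The ucp2 gene encodes the broadly expressed form, and its values were above control in all 9 exposed libraries. In PFOS20 its levels were 606, 737 and 591 TPM, a mean of 644 ± 80.5 TPM (SD, n = 3). In OBS20 they were 434, 408 and 472 TPM, a mean of 438 ± 32.6 TPM (SD, n = 3). The OBS20 values formed a narrow step above control, from 408 TPM upward against a highest control value of 367 TPM. In OBS30 the levels were 821, 704 and 719 TPM, a mean of 748 ± 63.8 TPM (SD, n = 3). The order from high to low was OBS30, PFOS20, OBS20, control. The OBS30 and PFOS20 values overlapped, since PFOS20 replicate 3 lay above the lower OBS30 libraries. With these levels ucp2 ranked 3rd of the 59 carriers in PFOS20 and in OBS30.

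The ucp3 gene encodes the counterpart of the mammalian muscle form and had the largest upward changes in proportion to control in PFOS20 and OBS30. In PFOS20 its levels were 169, 176 and 128 TPM, a mean of 158 ± 26.3 TPM (SD, n = 3). In OBS20 they were 76.9, 75.2 and 86.6 TPM, a mean of 79.6 ± 6.17 TPM (SD, n = 3). As with ucp2, all exposed libraries lay above all control libraries, and the OBS20 step was small. In OBS30 the levels were 239, 172 and 182 TPM, a mean of 197 ± 36.1 TPM (SD, n = 3). The order from high to low was OBS30, PFOS20, OBS20, control, and again OBS30 and PFOS20 overlapped. In the PFOS20 and OBS30 libraries ucp3 exceeded the 102 TPM of the lowest ucp1 control library. It was more abundant than ucp1 in every OBS20 and every OBS30 library. The ratio of ucp1 to ucp3 was 0.575 to 0.813 in OBS20 and 0.379 to 0.463 in OBS30.

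**Figure D1:**
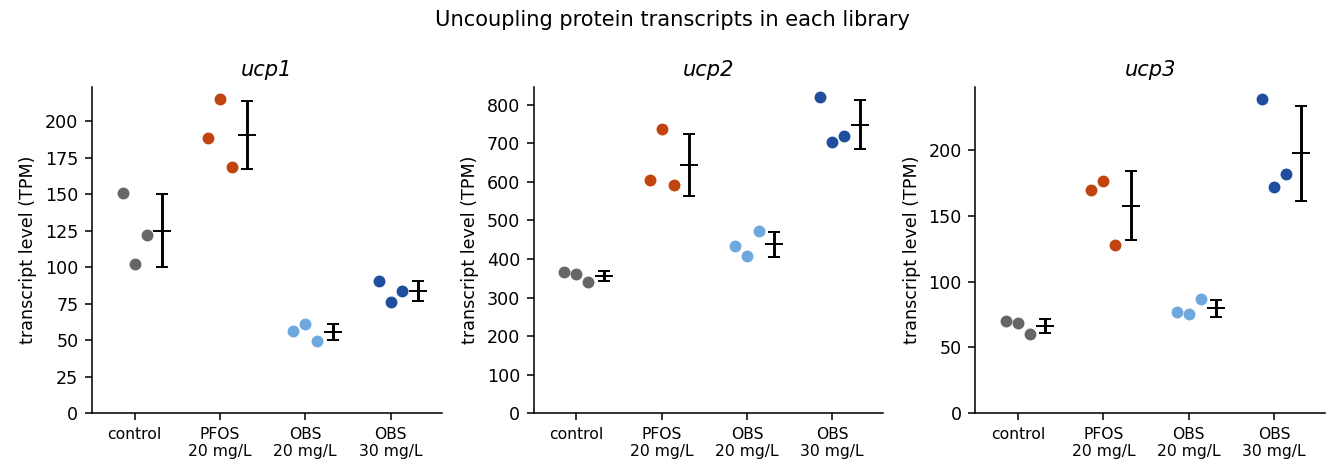
Transcript level in TPM of ucp1, ucp2 and ucp3 in each of the 12 libraries, by group. Points are libraries in order of replicate number, and the bar beside them is the mean with its SD (n = 3). The ucp1 values stand highest in PFOS20 and lowest in OBS20, while ucp2 and ucp3 stand highest in OBS30 and PFOS20.

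PFOS20 against control gave upward log2 changes for all 3 genes. The change was 0.61 ± 0.15 (standard error of the fit across all genes) for ucp1, 0.85 ± 0.10 for ucp2 and 1.23 ± 0.15 for ucp3. As ratios of mean TPM these were 1.52-fold, 1.81-fold and 2.39-fold. PFOS20 and control libraries overlapped for none of the 3. The share of all tested genes without overlap was not counted, here or in the other comparisons, so overlap is only described. Over all tested genes, limma called 6.35% higher and 11.9% lower in this comparison at a Benjamini-Hochberg adjusted p below 0.05. The median change of all tested genes was -0.13, and 34.7% of called genes were higher, against 48.3% after quantile normalisation and 49.2% after median-of-ratios scaling. Set against that median, the members stood 0.74, 0.98 and 1.36 above it.

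OBS20 against control separated ucp1 from the other two. Its log2 change was -1.14 ± 0.15, a level 2.24-fold lower than in control. The change was 0.29 ± 0.10 for ucp2 and 0.27 ± 0.15 for ucp3, or 1.23-fold and 1.20-fold. None of the 3 genes had overlapping libraries. In this comparison 0.681% of tested genes were called higher and 0.805% lower. Of the called genes 45.8% were higher, and 58.2% after quantile normalisation. Of all tested genes, 553 had a more negative change than ucp1, while 3323 had a more positive change than ucp2. Such places, here and below, only describe members chosen with results known. They are on the log2(TPM + 1) scale, which understates the change of low genes.

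OBS30 against control had the same pattern of directions with larger upward values. The log2 change was -0.56 ± 0.15 for ucp1, a 1.5-fold lower level. It was 1.06 ± 0.10 for ucp2, a 2.10-fold higher level, and 1.55 ± 0.15 for ucp3, a 2.99-fold higher level. No gene's OBS30 libraries overlapped control. Of all tested genes 4.73% were called higher and 3.7% lower. On the log2(TPM + 1) scale, 380 tested genes had a more positive change than ucp3 in this comparison. These 3 comparisons share the same control libraries, so their values are set side by side and not counted as separate support.

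At the matched dose of 20 mg/L, the only dose at which both compounds were used, every OBS20 library lay below every PFOS20 library for each of the 3 genes. The log2 difference was -1.75 ± 0.15 for ucp1, a level 3.42-fold lower in OBS20. It was -0.55 ± 0.10 for ucp2, 1.47-fold lower, and -0.97 ± 0.15 for ucp3, 1.98-fold lower. Of all tested genes 5.85% were called higher and 3.92% lower in OBS20 than in PFOS20. Of these calls 59.9% were higher, but 39.2% in a fit of only the 6 libraries compared, 78.7% without OBS20 replicate 3, 70.9% without PFOS20 replicate 4 and 48.5% without OBS20 replicate 2. On the log2(TPM + 1) scale, 231 tested genes had a more negative difference than ucp1. PFOS20 and OBS30 differ in both compound and dose, and their levels are only given side by side above.

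Between the OBS doses, every OBS30 library lay above every OBS20 library for each gene. The log2 difference was 0.58 ± 0.15 for ucp1, 0.77 ± 0.10 for ucp2 and 1.29 ± 0.15 for ucp3, or 1.5-fold, 1.71-fold and 2.48-fold. For ucp2 and ucp3 the higher dose was farther from control. For ucp1 the higher dose was nearer to control, since its lowest levels were at 20 mg/L. Of all tested genes 1.11% were called higher and 0.466% lower in OBS30 than in OBS20. Of these called genes 70.5% were higher, and 56.2% after quantile normalisation.

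**Figure D2:**
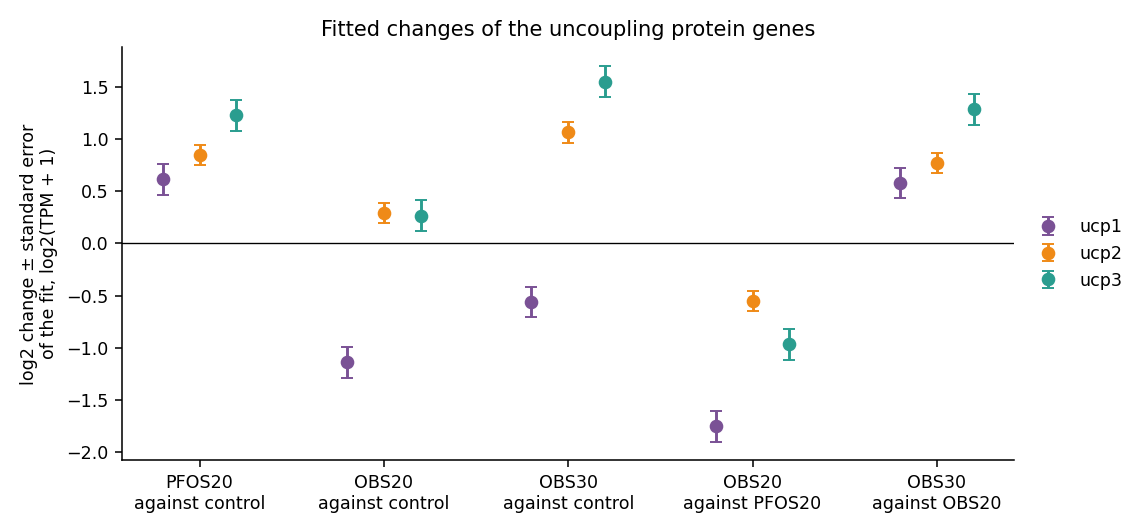
Log2 change with the standard error of the limma fit for ucp1, ucp2 and ucp3 in the 5 comparisons, on the log2(TPM + 1) scale. The ucp1 change is positive in PFOS20 and negative in OBS20 and OBS30 against control, and the ucp2 and ucp3 changes keep 1 sign within each comparison.

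Because ratios within a library do not depend on its scaling, the balance between the 3 genes was also taken per library. The ucp1 transcript per ucp2 transcript was 0.412, 0.283 and 0.358 in control and 0.311, 0.292 and 0.285 in PFOS20, and these overlapped. It was 0.130, 0.150 and 0.105 in OBS20 and 0.110, 0.109 and 0.117 in OBS30. All 6 OBS libraries lay below all control and PFOS20 libraries, and the 2 OBS doses overlapped each other. In these terms ucp1 made up 22.8% ± 3.30 of the summed TPM of the 3 genes in control and 19.2% ± 0.306 in PFOS20 (SD, n = 3). It made up 9.79% ± 1.54 in OBS20 and 8.15% ± 0.349 in OBS30 (SD, n = 3).

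The ratio of ucp2 to ucp3 divided the groups in another way. It was 5.41 ± 0.234 in control and 5.51 ± 0.121 in OBS20 (SD, n = 3), with overlapping libraries. It was 4.13 ± 0.528 in PFOS20 and 3.83 ± 0.346 in OBS30 (SD, n = 3), which also overlapped each other and lay below all control and OBS20 libraries. The summed TPM of the 3 genes followed the same division, with 548 ± 34.8 in control, 573 ± 32.8 in OBS20, 993 ± 123 in PFOS20 and 1029 ± 106 in OBS30 (SD, n = 3). In OBS20 the sum overlapped control although each gene taken alone did not.

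**Figure D3:**
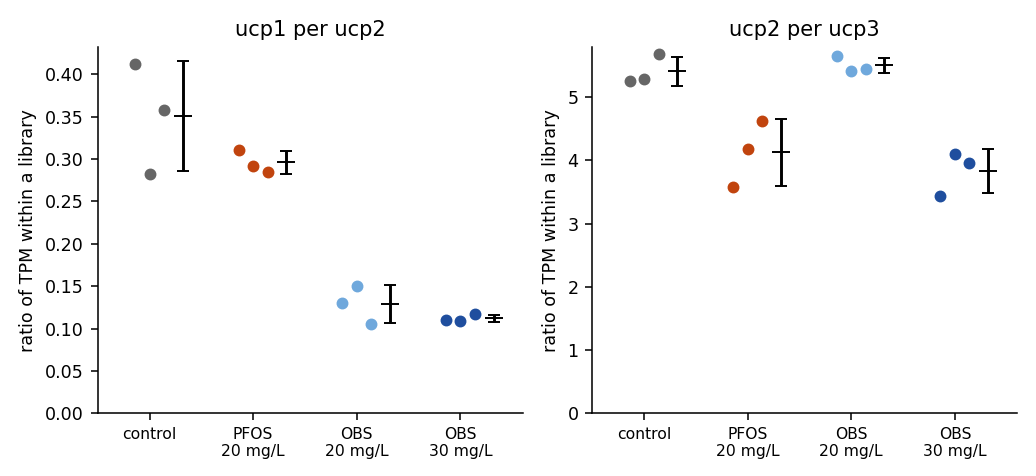
Ratio of ucp1 to ucp2 TPM and of ucp2 to ucp3 TPM within each library, by group, with the mean and SD (n = 3) beside the points. The ucp1 to ucp2 ratio is lower in both OBS groups, and the ucp2 to ucp3 ratio is lower in PFOS20 and OBS30.

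The other named members of the mitochondrial carrier family gave a background of related proteins. Of 56 such genes, 51 passed the filter on low values. In PFOS20 against control 8 were called higher, 2 lower and 41 not called, with a median change of -0.05 against -0.13 for all tested genes. The called share was 19.6% of the carriers and 18.3% of all tested genes. In OBS30 against control 5 were higher, 4 lower and 42 not called, or 17.6% called against 8.42% of all tested genes, with a median of -0.08 against 0.02. In OBS20 against control 0 of 51 were called by limma, and the median was -0.16 against -0.08. There 1.49% of all tested genes were called, and an unadjusted p below 0.05 was found for 9 carriers, 17.6% of them, against 10.5% of all tested genes. At the matched dose 1 was higher and 5 lower in OBS20, 11.8% called against 9.77%, with a median of -0.19 against 0.04. Between the OBS doses 1 was higher, 1.96% against 1.58%, with a median of 0.16 against 0.10. No carrier among the 51 had a change as low as that of ucp1 in OBS20, where the next lowest was slc25a25b at -0.69. On the log2(TPM + 1) scale, none had a change as high as that of ucp3 in PFOS20 or OBS30. The next highest was slc25a38a, at 1.17 ± 0.18 against 1.23 ± 0.15 for ucp3 in PFOS20, within these standard errors. It had 1.29 ± 0.18 against 1.55 ± 0.15 in OBS30. That scale understates slc25a38a, which had 2.87 TPM in control and 7.67 TPM in PFOS20. In proportion to control, this PFOS20 rise was larger than that of ucp3, from 66.1 to 158 TPM.

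Among the called carriers of at least 5 TPM, the ADP/ATP carrier slc25a5, which exchanges ADP and ATP across the inner membrane, was the most abundant and rose from 3581 ± 142 to 5636 ± 344 TPM in PFOS20 (SD, n = 3), and its log2 change was 0.65 ± 0.05 (adjusted p = 6e-05). It rose by 0.31 ± 0.05 in OBS30 (adjusted p = 0.0053), and its change in OBS20 was 0.11 ± 0.05 (adjusted p = 0.51). It was lower in OBS20 than in PFOS20 by a log2 difference of -0.54 ± 0.05 (adjusted p = 0.00029). The other ADP/ATP carriers, slc25a4 and slc25a6, were not called in any of the 5 comparisons. The slc25a38a gene, whose human counterpart brings glycine into mitochondria for haem synthesis, rose by 1.17 ± 0.18 in PFOS20 (adjusted p = 0.0021) and by 1.29 ± 0.18 in OBS30 (adjusted p = 0.0015). The slc25a25a gene, an ATP-magnesium carrier, rose by 0.69 ± 0.13 in PFOS20 (adjusted p = 0.0061). The slc25a12 gene, which exports aspartate, rose by 0.65 ± 0.10 in PFOS20 (adjusted p = 0.0016) and by 0.55 ± 0.10 in OBS30 (adjusted p = 0.0054). The slc25a36b gene, a nucleotide carrier, had a change of 0.57 ± 0.15 there (adjusted p = 0.039), a call kept in 9 of 19 alternative settings.

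The citrate carrier slc25a1a fell in PFOS20, with a log2 change of -0.75 ± 0.13 (adjusted p = 0.004). The phosphate carrier slc25a3a fell in OBS30, with -0.76 ± 0.12 (adjusted p = 0.0034), and in PFOS20, with -0.40 ± 0.12 (adjusted p = 0.049). The PFOS20 call of slc25a3a was kept in only 4 of 19 alternative settings. The far more abundant slc25a3b, named after its values were seen, was called higher in PFOS20. It rose from 731 ± 38.2 to 937 ± 37.9 TPM (SD, n = 3; 0.36 ± 0.07, adjusted p = 0.0059). The more abundant relative of slc25a1a, slc25a1b, had 32.5 ± 5.74 TPM in control and 43.6 ± 2.31 in PFOS20 (SD, n = 3) and was not called. A fall of 1 of these genes is thus not a fall of the summed transcripts of both. In OBS30 the dicarboxylate carrier slc25a10 (-0.47 ± 0.13, adjusted p = 0.046) and the carnitine carrier slc25a20 (-0.31 ± 0.08, adjusted p = 0.049) fell, calls kept in 9 and 7 of 19 settings. The carnitine carrier brings fatty acids to the matrix.

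The carriers closest to the uncoupling proteins in mammals, slc25a14 and slc25a27, were weakly expressed, at 3.41 ± 1.19 and 2.26 ± 0.240 TPM in control (SD, n = 3). Neither was called in PFOS20 or OBS20. In OBS30 slc25a27 fell to 0.767 ± 0.155 TPM, a change of -0.88 ± 0.18 (adjusted p = 0.012). Of the carriers, slc25a26 (-0.74 ± 0.16, adjusted p = 0.014), slc25a43 (-0.71 ± 0.11, adjusted p = 0.0039) and slc25a1b (-0.69 ± 0.16, adjusted p = 0.02) were lower in OBS20 than in PFOS20. The slc25a26 protein imports S-adenosylmethionine. Against control, slc25a26 (0.59 ± 0.16, adjusted p = 0.025) and slc25a43 (0.56 ± 0.11, adjusted p = 0.0081) were called higher in PFOS20, and slc25a1b was not called. In OBS30, slc25a43 was also called higher than in control (0.42 ± 0.11), but barely, with an adjusted p that rounds to the threshold of 0.05. The carrier that was higher in OBS20 than in PFOS20 was slc25a1a, by 0.54 ± 0.13 (adjusted p = 0.03), a call kept in 12 of 19 alternative settings. The matched-dose calls of slc25a26, slc25a43 and slc25a1b were kept in 16, 19 and 14 of 19. The single call between the OBS doses was slc25a43, named after its values were seen, at 0.57 ± 0.11 (adjusted p = 0.036).

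The number of called carriers depended on single libraries, as did that over all tested genes. Without OBS20 replicate 3 the carrier count was 20 instead of 10 in PFOS20, 15 instead of 9 in OBS30, 13 instead of 6 at the matched dose, and 1 instead of 0 in OBS20. Over all tested genes the same removal gave 8713 instead of 5610, 3969 instead of 2584, 6506 instead of 2996, and 504 instead of 456. That library is in neither group of PFOS20 or OBS30 against control, and enters there only through the filter and the shared fit. The OBS30 carrier count was 4 without OBS30 replicate 4 and 5 without any 1 of OBS30 replicates 1 and 3 and control replicates 2, 3 and 4. The matched-dose count was 3 without PFOS20 replicate 3, and the OBS20 count was also 1 without OBS20 replicate 1. The single call between the OBS doses was lost without any 1 of 10 of the 12 libraries, the exceptions being PFOS20 replicates 3 and 4. Quantile normalisation and median-of-ratios scaling gave 18 and 16 called carriers in PFOS20.

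**Figure D4:**
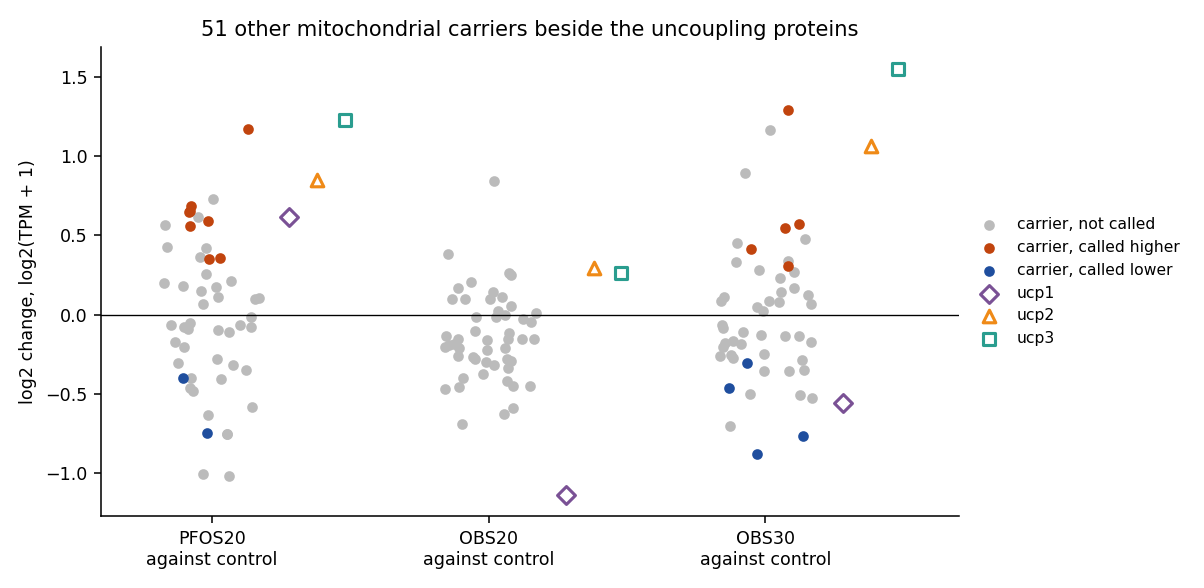
Log2 changes on the log2(TPM + 1) scale of the 51 tested mitochondrial carriers other than the uncoupling proteins, with the 3 uncoupling protein genes as open symbols, in the comparisons with control. Red and blue points were called higher or lower at an adjusted p below 0.05, horizontal scatter within a comparison has no meaning, and ucp1 in OBS20 lies below and ucp3 in PFOS20 and OBS30 lies above all 51.

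A list of 45 genes covered the PPAR regulators of mammalian uncoupling protein genes and the supply of fatty acids and pyruvate to mitochondria, and 44 passed the filter. In PFOS20 9 were called higher and 2 lower, 25% of the list against 18.3% of all tested genes, with a median change of 0.10 against -0.13. In OBS30 5 were higher and 1 lower, 13.6% against 8.42%, with a median of 0.06 against 0.02. In OBS20 0 were higher and 1 was lower, 2.27% against 1.49%, with a median of -0.08 against -0.08. At the matched dose 0 were higher and 8 were lower in OBS20, 18.2% against 9.77%, with a median of -0.15 against 0.04. Between the OBS doses 1 was higher and 1 lower (4.55% against 1.58%), pdk2b and cd36, named after their values were seen.

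The list was built from regulators and from genes of fatty acid and pyruvate supply, so these themes were set in advance. The largest rises called in it are given here, while 33 of 44 genes in PFOS20 and 38 in OBS30 were not called. The pyruvate dehydrogenase kinase gene pdk4, which holds back glucose oxidation, rose from 15.9 ± 2.17 to 32.7 ± 3.49 TPM in PFOS20 (SD, n = 3; log2 change 0.99 ± 0.22, adjusted p = 0.012). It rose to 35.4 ± 3.90 TPM in OBS30 (1.11 ± 0.22, adjusted p = 0.012). Its relative pdk2b rose by 0.82 ± 0.14 in OBS30 (adjusted p = 0.0048) and was lower in OBS20 than in PFOS20 by -0.89 ± 0.14 (adjusted p = 0.0037). The pdk2b mean was also higher in PFOS20, at 486 ± 66.7 TPM against 255 ± 31.1 in control (SD, n = 3). The triglyceride lipase gene pnpla2 rose by 0.99 ± 0.17 in PFOS20 (adjusted p = 0.003) and was lower in OBS20 than in PFOS20 by -1.22 ± 0.17 (adjusted p = 0.0017). Its OBS30 levels of 5.57, 6.51 and 7.04 TPM overlapped the control levels of 5.73, 4.47 and 5.72 TPM. The lipoprotein lipase inhibitor angptl4, a PPAR target in mammals, rose by 0.93 ± 0.12 in PFOS20 (adjusted p = 0.00069). Its control levels were 84.7, 78.9 and 68.7 TPM. In OBS20 they were 109, 104 and 96.2 TPM, and in OBS30 140, 110 and 110 TPM. The fat cell regulator pparg rose from 2.82 ± 0.390 to 7.23 ± 0.831 TPM in OBS30 (1.11 ± 0.21, adjusted p = 0.0085). It was also called higher in PFOS20, at 5.57 ± 0.683 TPM (0.78 ± 0.21, adjusted p = 0.027).

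The fatty acid uptake receptor cd36 moved the other way. It fell from 50.9 ± 4.69 to 28.7 ± 5.58 TPM in OBS20 (SD, n = 3; -0.82 ± 0.13, adjusted p = 0.011). In OBS30 it fell to 17.1 ± 1.19 TPM (-1.52 ± 0.13, adjusted p = 6.2e-05). Its PFOS20 levels of 38.0, 38.4 and 39.3 TPM also lay below the control levels of 55.5, 46.1 and 51.1 TPM, but limma did not call it there. The fatty acid dehydrogenase acadl (-0.83 ± 0.25, adjusted p = 0.043) and the retinoid receptor rxrgb (-0.48 ± 0.13, adjusted p = 0.025) fell in PFOS20, calls kept in 5 and 12 of 19 alternative settings. The beta-oxidation enzyme hadhaa was lower in OBS20 than in PFOS20 by -0.86 ± 0.16 (adjusted p = 0.0075).

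These counts also moved with single libraries. In PFOS20 the 11 called genes became 17 without OBS20 replicate 3, and 5 to 7 without any 1 of the PFOS20 and control libraries. In the same checks the 5610 calls over all tested genes became 8713, and 3066 to 5329. The 8 calls at the matched dose became 4 without PFOS20 replicate 3 and 5 without OBS20 replicate 1. There the 2996 calls over all tested genes became 1366 and 1560. The single OBS20 call, cd36, was lost without control replicate 2 or OBS20 replicate 1. The 2 calls between the OBS doses became 0 or 1 without any 1 of the 6 OBS libraries.

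Thyroid, beta-adrenergic and brown fat regulator genes named in the control of mammalian UCP1 made up a list of 20, of which 17 were in the table and 15 passed the filter. In PFOS20 0 were higher and 2 lower, in OBS20 0 and 1, and in OBS30 0 and 3. The called shares were 13.3%, 6.67% and 20%, against 18.3%, 1.49% and 8.42% of all tested genes. The medians were -0.34, -0.32 and -0.15, against -0.13, -0.08 and 0.02. The thyroid hormone inactivating deiodinase gene dio3b fell from 5.93 ± 0.938 to 1.93 ± 0.757 TPM in OBS20 (SD, n = 3; -1.27 ± 0.21, adjusted p = 0.014). It fell to 2.75 ± 0.478 TPM in OBS30 (-0.89 ± 0.21, adjusted p = 0.028). The deiodinase gene dio1 fell in OBS30 (-0.71 ± 0.18, adjusted p = 0.032). The protein kinase A subunit gene prkacab fell in PFOS20 (-0.78 ± 0.17, adjusted p = 0.012). The remaining calls, ebf2 lower in PFOS20 and cideb lower in OBS30, were named after their values were seen, and neither reached 5 TPM in control. Between the compounds at 20 mg/L, prkacab was higher in OBS20 by 0.71 ± 0.17 (adjusted p = 0.028) and dio3b lower by -1.10 ± 0.21 (adjusted p = 0.0096). Between the OBS doses 0 of 15 were called by limma and 0 had an unadjusted p below 0.05, against 13.1% of all tested genes.

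The list counts moved with the removal of libraries, as did calls over all tested genes. Of 19 alternative settings, prkacab kept its call in 18 in PFOS20 and 13 at the matched dose, and dio1 in 12 in OBS30. For dio3b, tested in 18, calls were kept in 13 in OBS20, 11 in OBS30 and 16 at the matched dose. The PFOS20 list count was 5 without OBS20 replicate 3 and 1 without any 1 of the control and PFOS20 libraries or OBS30 replicate 4. Over all tested genes, PFOS20 calls ran from 3066 to 8713 in these checks. The OBS20 call was lost without control replicate 3 or 4 or OBS20 replicate 1. The OBS30 count was 0 without control replicate 2 or OBS30 replicate 4, and 1 without control replicate 3 or 4 or OBS30 replicate 3. At the matched dose the 2 calls became 4 without OBS20 replicate 3 and 1 without PFOS20 replicate 2 or 3 or OBS20 replicate 1 or 2.

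Since uncoupling is discussed as a brake on mitochondrial superoxide, 12 genes of mitochondrial peroxide defence were also read, of which 11 were in the table and passed the filter. In PFOS20 2 were called higher and 2 lower, 36.4% against 18.3% of all tested genes, with a median change of 0.03 against -0.13. In OBS20 and OBS30 0 were called by limma, against 1.49% and 8.42% of all tested genes. An unadjusted p below 0.05 was found for 1 gene in each, 9.09% of the list, against 10.5% and 21% of all tested genes. The mitochondrial thioredoxin txn2 rose from 54.4 ± 2.48 to 66.0 ± 3.00 TPM in PFOS20 (SD, n = 3; 0.27 ± 0.08, adjusted p = 0.029). The peroxiredoxin prdx5 had a change of 0.24 ± 0.08 (adjusted p = 0.049), a call kept in 5 of 19 alternative settings. The oxidation resistance genes oxr1a (-0.96 ± 0.20, adjusted p = 0.0087) and oxr1b (-0.71 ± 0.13, adjusted p = 0.0047) fell in PFOS20. Set against PFOS20, txn2 was lower (-0.30 ± 0.08, adjusted p = 0.031) and oxr1b higher (0.50 ± 0.13, adjusted p = 0.036) in OBS20. Between the OBS doses 0 of 11 were called by limma and 2 had an unadjusted p below 0.05, 18.2% against 13.1% of all tested genes.

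The PFOS20 count of 4 became 2 without control replicate 2 or 4 or PFOS20 replicate 3. In those checks the 5610 calls over all tested genes became 3614, 3308 and 3066. The OBS30 count became 1 without OBS20 replicate 3. The matched-dose count of 2 became 0 without PFOS20 replicate 2 or 3 or OBS20 replicate 1 or 2, and 1 without OBS30 replicate 3 or any 1 control library.

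The genes nearest in profile to each member were found by the root-mean-square difference over the 12 libraries between log2(TPM + 1) values, each taken from its own control mean. The search covered 12856 genes with a symbol and at least 5 TPM in their highest group. Between the members, ucp2 and ucp3 differed by 0.326, with 288 genes nearer to ucp2 than ucp3 was. The ucp1 profile differed from ucp2 by 1.1 and from ucp3 by 1.32. Nearest to ucp2 were emx3, a forebrain homeobox gene (0.095), vsig10 (0.122), cd9b, a tetraspanin (0.125), gldc, which breaks down glycine (0.130), and ppdpfb (0.144). The levels of emx3 were low, at 3.17 TPM in control and 7.24 TPM in OBS30, while ppdpfb had 536 and 1147 TPM.

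Nearest to ucp3 were arrdc2, of the arrestin-domain family (0.181), and ppp1r15a, which directs removal of phosphate from the translation factor eIF2 alpha (0.190). They were followed by s100a10b, a partner of annexin (0.207), hhla2a.1 (0.235) and hmox1a, a haem oxygenase (0.242). The arrdc2 levels were 48.1, 115, 62.3 and 157 TPM in control, PFOS20, OBS20 and OBS30, the same order of groups as for ucp3. The mean level of hmox1a was 8.34 TPM in control and 27.4 TPM in OBS30.

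Nearest to ucp1 was si:dkey-103g5.3 at a larger distance (0.267), with mean levels of 19.8 TPM in control, 37.2 TPM in PFOS20, 9.51 TPM for OBS20 and 11.7 TPM for OBS30. Next came rgs2, a brake on G protein signalling (0.331), and mfap4 (0.352), one of the leukocyte markers summed below. The fibrinogen chain genes fga (0.356) and fgb (0.363), whose products the liver secretes, followed. Neither fibrinogen gene reached the PFOS20 change of ucp1: fga had a log2 change of 0.19 and fgb of 0.20 there. In OBS20 fga had -0.78 and fgb -0.70 against -1.14 for ucp1. The genes nearest in profile were selected on all 12 libraries, so their values are a description.

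**Figure D5:**
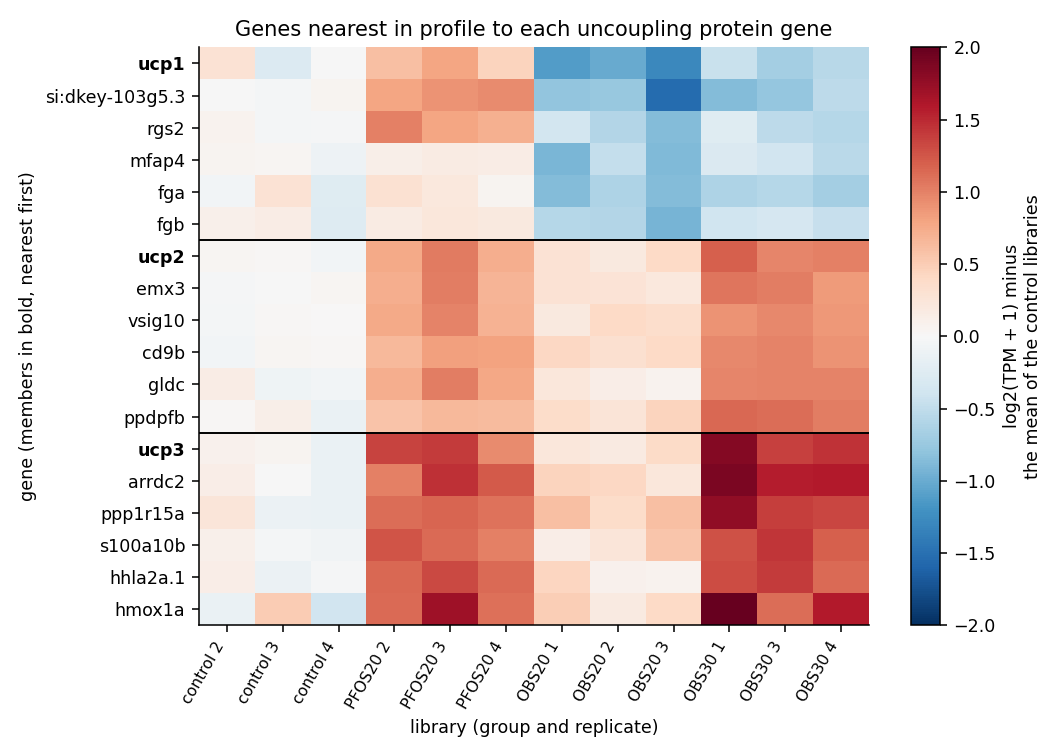
Log2(TPM + 1) in each of the 12 libraries minus the mean of the control libraries, for each uncoupling protein gene (bold) and its 5 nearest genes in order of distance. The ucp2 and ucp3 blocks are red in PFOS20 and OBS30 and pale in OBS20, and the ucp1 block is red in PFOS20 and blue in both OBS groups, with fga, fgb and mfap4 pale in PFOS20.

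In the RefSeq gene order of the GRCz12tu assembly, ucp3 and ucp2 are neighbouring protein-coding genes on 1 chromosome and ucp1 lies on another. The genes around the pair were rsf1b.1, slc1a3b, dnajb13 and mrpl48, and those around ucp1 were rnf150a, tbc1d9, elmod2 and zgc:66455. The last, at 0.337 TPM in control, did not pass the filter and was not tested. In the 3 comparisons with control, none of the other 7 genes was called by limma. Of all tested genes 18.3%, 1.49% and 8.42% were called in PFOS20, OBS20 and OBS30, and 7 genes are too few to set against these shares. Among the 7, rnf150a and dnajb13 had only 1.29 and 1.25 TPM in control. The nearest to a call was tbc1d9 in PFOS20, with a log2 change of -0.61 ± 0.23 (adjusted p = 0.094). The mitochondrial ribosomal protein gene mrpl48 had 28.0 TPM in control and 31.1, 31.2 and 28.3 TPM in PFOS20, OBS20 and OBS30. A gene that was not called is not shown to be unchanged.

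Markers of cell types that could carry the transcripts were summed per library. The 10 hepatocyte markers, all above 0 in every library, summed to 5736 ± 546 TPM in control (SD, n = 3), against 3908 ± 30.8 in PFOS20, 3935 ± 39.2 in OBS20 and 2936 ± 325 in OBS30. Their ranges were 5133 to 6197, 3877 to 3939, 3903 to 3979 and 2693 to 3305 TPM. The sum was thus lower in every exposed library, in PFOS20 as well, where ucp1 was higher. It is not weighted, so its most abundant genes count most. The list holds fga and fgb, whose PFOS20 means of 107 and 92.7 TPM were above 94.7 and 81.3 TPM in control. The other markers of the list were not read singly. Per 1000 TPM of hepatocyte markers, control larvae had 21.9 ± 3.90 TPM of ucp1 (SD, n = 3), PFOS20 larvae 48.8 ± 5.85, OBS20 larvae 14.2 ± 1.36 and OBS30 larvae 28.6 ± 2.27. On that scale the OBS20 libraries stayed below control, at 12.7 to 15.4 against 17.4 to 24.4, and the OBS30 libraries lay above control, at 27.2 to 31.2. The direction of ucp1 in OBS30 against control therefore depended on whether the level was taken per total transcripts or per this summed hepatocyte list. Per 1000 TPM of the neuron markers given below, ucp1 had 75.4 ± 17.7 TPM in control and 60.1 ± 8.91 in OBS30 (SD, n = 3). On the neuron scale it had 256 ± 80.9 in PFOS20 and 36.4 ± 1.79 in OBS20. The control and OBS30 libraries overlapped there.

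The 14 muscle markers, all above 0 in every library, summed to between 72897 and 77648 TPM in control, 62635 and 72472 in PFOS20, 75661 and 93552 in OBS20, and 73993 and 82346 in OBS30. Per 1000 TPM of muscle markers, control larvae had 0.872 ± 0.0915 TPM of ucp3 (SD, n = 3), PFOS20 larvae 2.36 ± 0.434, OBS20 larvae 0.966 ± 0.0353 and OBS30 larvae 2.53 ± 0.332. The PFOS20 and OBS30 groups stood apart from control and OBS20 on this scale too, and OBS20 overlapped control. The 10 leukocyte markers, of which 2 were at 0 in some library of each group, summed to 101, 80.5, 78.0 and 69.5 TPM in control, PFOS20, OBS20 and OBS30. The neuron markers summed to 1672 ± 83.0 TPM in control and 787 ± 213 in PFOS20, and the erythrocyte markers to 3389 ± 62.0 and 1999 ± 242 (SD, n = 3). The 7 enterocyte markers in the table summed to 2784, 2926, 2494 and 1955 TPM in control, PFOS20, OBS20 and OBS30, and the 6 kidney markers to 92.0, 79.4, 67.8 and 65.2 TPM. The part of these cell types in the uncoupling protein levels was not tested.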

How the data were processed

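Whole-larva poly(A) RNA libraries (12, 3 per group) were analysed from the authors' deposited TPM table. HISAT2, StringTie and RSEM, and GRCz11 as the build, are named per the submitters' processing notes, with no version. As TPM holds no counts, read depth is unknown, and precision rests on the spread between libraries. Values were log2(TPM + 1). A fold change on that scale understates the change of low genes. Genes that reached 1 TPM in 3 or more of 12 libraries entered 1 limma fit (limma 3.58.1, R 4.3.3; eBayes with a mean-variance trend, a group term, 8 residual degrees of freedom), with 5 contrasts and two-sided tests adjusted by Benjamini-Hochberg over all tested genes. The fit was also run on simulated data, with independent normal noise for each gene and changes added in OBS20 only. That setting holds no outlying library, so it does not show how the fit behaves with one. Of rows with 1 symbol, that with the largest mean TPM was taken.

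The members, lists, markers and naming rule were chosen with earlier results of these data known. Besides the members, the rule named the 3 highest and 3 lowest called genes of each list with at least 5 TPM in the higher group, carriers akin to uncoupling proteins or carrying ADP and ATP, and the 5 nearest profiles of each member. Levels per marker TPM were added after the data were seen. Sequences and coordinates were not analysed here, since the reference tables are of another assembly (GRCz12tu) and hold no sequence. They were used only for which genes share a chromosome and neighbour each other. Alternatives were a pseudocount of 0.1, a stricter filter (mean TPM of 5 or more) or none, a replicate block, median-of-ratios scaling, quantile normalisation, fits of the 6 libraries compared, and leaving out each library.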

Additional observations from a re-analysis of the deposited data

How the results depend on the processing

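The log2 changes of ucp1, ucp2 and ucp3 kept their sign in 19 of 19 alternatives in each of the 5 comparisons. Over the removal of single libraries, the ucp1 change ran from 0.48 to 0.76 in PFOS20, -1.28 to -0.99 in OBS20, -0.70 to -0.42 in OBS30, -1.84 to -1.66 at the matched dose and 0.50 to 0.65 between the OBS doses. For ucp2 the ranges were 0.75 to 0.91, 0.24 to 0.35, 1.00 to 1.11, -0.61 to -0.45 and 0.70 to 0.83, and for ucp3 1.14 to 1.38, 0.20 to 0.30, 1.41 to 1.64, -1.11 to -0.88 and 1.14 to 1.38. Median-of-ratios scaling moved ucp2 by more than the replicate SD pooled over the groups compared, to 1.02 in PFOS20, 0.40 in OBS20 and 0.64 between the OBS doses. The median change of all tested genes moved by over 0.1 with scaling in PFOS20, from -0.13 to -0.005 (quantile) or -0.0013 (median-of-ratios), and between the OBS doses, from 0.10 to -0.02 (quantile). Without OBS20 replicate 3 it went from -0.08 to 0.07 in OBS20, 0.04 to 0.19 at the matched dose and 0.10 to -0.05 between the OBS doses.

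Counts of called genes moved more, and the cause was not tested. Over the removal of single libraries, calls among all tested genes ran from 3066 (without PFOS20 replicate 3) to 8713 (without OBS20 replicate 3) in PFOS20, 230 to 504 in OBS20, 1497 (without OBS30 replicate 4) to 3969 (without OBS20 replicate 3) in OBS30, 1366 (without PFOS20 replicate 3) to 6506 (without OBS20 replicate 3) at the matched dose and 138 to 427 between the OBS doses, against 5610, 456, 2584, 2996 and 484. In the same order, carriers ran from 7 to 20, 0 to 1, 4 to 15, 3 to 13 and 0 to 1, fuel genes from 5 to 17, 0 to 1, 4 to 6, 4 to 11 and 0 to 2, thermogenic genes in the first 4 from 1 to 5, 0 to 1, 0 to 3 and 1 to 4, and peroxide genes in PFOS20, OBS30 and the matched dose from 2 to 5, 0 to 1 and 0 to 3. Calls of the named list genes were lost in 104 checks without 1 library and kept in 376, lost in 47 checks under other settings and kept in 229, and never reversed.

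Quantile normalisation gave 3879 calls in OBS30, 5074 at the matched dose and 769 between the OBS doses, with 18 carriers in PFOS20, 1 in OBS20, 13 carriers and 13 fuel genes at the matched dose, and 0 carriers and 5 fuel genes between the OBS doses. Median-of-ratios scaling gave 4541 calls at the matched dose, with 14 fuel genes there, 16 carriers in PFOS20, 1 in OBS20, and 0 carriers and 4 fuel genes between the OBS doses. A pseudocount of 0.1 called 1 carrier in OBS20, and no filter called 1 peroxide gene in OBS30. The mean of at least 5 TPM, which tests fewer genes, left 1, 0, 1 and 1 thermogenic genes in PFOS20, OBS20, OBS30 and the matched dose, and called 1 carrier in OBS20 and 1 peroxide gene in OBS30.

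With only the 6 libraries compared, 109 genes were called in OBS20, 576 at the matched dose and 88 between the OBS doses. That fit called 4 thermogenic and 2 peroxide genes in PFOS20 and 0 fuel and 0 thermogenic genes in OBS20. At the matched dose it called 2 carriers, 3 fuel genes and 0 of the other lists, and between the OBS doses 0 carriers and 0 fuel genes.

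Correlations were taken between the deviations from the group means of libraries with the same replicate number. For PFOS20 with control they were 0.017, 0.011 and -0.014 for numbers 2, 3 and 4. Over the other comparisons they ran from -0.115 (OBS30 with OBS20) to 0.101 (OBS20 with PFOS20). These values did not show a pairing by number, but they cannot exclude a shared clutch or batch. The replicate block gave 3634, 136, 1150, 1389 and 133 calls in the 5 comparisons, and moved ucp3 in OBS20 to 0.14. With the block, the PFOS20 calls were 5 fuel and 2 peroxide genes, the OBS20 calls 0 fuel and 0 thermogenic genes, and the OBS30 calls 3 carriers and 0 thermogenic genes. The matched dose then had 3 carriers, 5 fuel, 0 thermogenic and 0 peroxide genes, and the OBS doses 0 carriers and 1 fuel gene.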
